A study of Mus musculus with 5 samples.

Results

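Small RNAs of mouse spermatogonia were compared with those of mouse oocytes, that is, mitotic male germ cells of the young testis with ovulated eggs. The comparison took 2 of the 5 libraries of the series, 1 per cell type, and within each library 4 tables of read numbers, for miRNAs, snoRNAs, piRNAs and endo-siRNAs. Of the entries listed over the series, 1046 of 1316 miRNAs, 184 of 186 snoRNAs, 118771 of 196406 piRNAs and 166005 of 212905 endo-siRNAs had reads in this pair. Spermatogonia came from testes of CD-1 mice at 8.5 dpn, as the labels write the age. Somatic cells of the testis suspension were left to settle and stick during 3 to 4 h of culture, and the cells still in suspension were taken. The labels report a purity check on Stra8, a germ cell gene that was present, and Fn1, a somatic gene that was absent, and messenger RNAs were not analysed here. The oocytes, labelled metaphase II in one field and fully grown in another, came from oviducts of C57BL/6 females aged 4 to 5 weeks that had been superovulated with 5 IU PMSG and, 48 h later, 5 IU HCG. The shared protocol for oocytes and zygotes also names mating with DBA/6J males. Cumulus cells were removed with hyaluronidase and the zona pellucida with acidic Tyrode solution, and 15210 oocytes were collected for sequencing. Sex, strain, age and isolation differ between the libraries and cannot be told apart from the cell type. With 1 library a side no difference has a replicate check, so ratios are given with 95% intervals that cover counting error only, and PCR copies are not independent molecules. In such bulk RNA, fewer cells of a type and less RNA per cell cannot be told apart either.

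A miRNA is cut from a hairpin precursor and guides an Argonaute protein to messenger RNAs, mainly through its seed, bases 2 to 8. piRNAs guide PIWI proteins against transposons and are made in large amounts in the male germ line. Endo-siRNAs arise when Dicer cleaves long double-stranded transcripts, and mouse oocytes are known for them and carry a shortened, highly active form of Dicer. snoRNAs guide the chemical modification of ribosomal RNA, and fragments of them appear in small RNA libraries. In mouse oocytes the activity of miRNAs on their targets is known to be weak, while spermatogonia depend on the miRNA pathway.

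The sequences below are those of miRNAs that led one library or the other, or that share a seed while their ratios differ. They are RefSeq mature sequences on build GRCm38.p6, with the seed in capitals. Of 1316 miRNA entries, 1090 matched a RefSeq name, among them 389 of those used for ratios.
let-7f-5p: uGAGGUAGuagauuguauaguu
let-7g-5p: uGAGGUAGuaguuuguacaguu
let-7c-5p: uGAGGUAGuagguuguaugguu
let-7e-5p: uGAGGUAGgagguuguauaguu
miR-99b-5p: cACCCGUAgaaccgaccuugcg
miR-99a-5p: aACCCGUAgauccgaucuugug
miR-100-5p: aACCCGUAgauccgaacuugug
miR-182-5p: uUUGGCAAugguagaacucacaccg
miR-183-5p: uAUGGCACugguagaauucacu
miR-21a-5p: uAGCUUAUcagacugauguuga
miR-3471: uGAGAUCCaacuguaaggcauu
miR-3470b: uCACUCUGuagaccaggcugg
miR-127-3p: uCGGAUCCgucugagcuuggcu
miR-880-3p: uACUCCAUccucucugaguaga
miR-202-5p: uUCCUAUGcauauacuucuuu

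The classes had different weights in the libraries. miRNAs made up 40.5% of the reads of the 4 tables in spermatogonia [40.44 to 40.47, exact binomial interval] and 4.65% in the oocyte [4.643 to 4.656]. snoRNAs held 19.4% in spermatogonia and 1.73% in the oocyte. Endo-siRNAs ran the other way, with 13% in spermatogonia and 60.1% in the oocyte. piRNAs were the class with the smallest gap, at 27.1% in spermatogonia and 33.6% in the oocyte. In reads, spermatogonia had 10657432 on miRNAs, 5108830 on snoRNAs, 7150813 on piRNAs and 3427374 on endo-siRNAs, and the oocyte 2010462, 749747, 14513316 and 25968584 on the same classes. A share says nothing of the amount per cell. Since 1 class can fill a library, levels below are reads per 1000000 reads of the class in the library (RPM). On the scale of all 4 classes together, that is with the reads of all 4 tables as the total, every miRNA log2 ratio would be 3.12 higher, every snoRNA ratio 3.48 higher, every piRNA ratio 0.31 lower and every endo-siRNA ratio 2.21 lower.

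**Figure D1:**
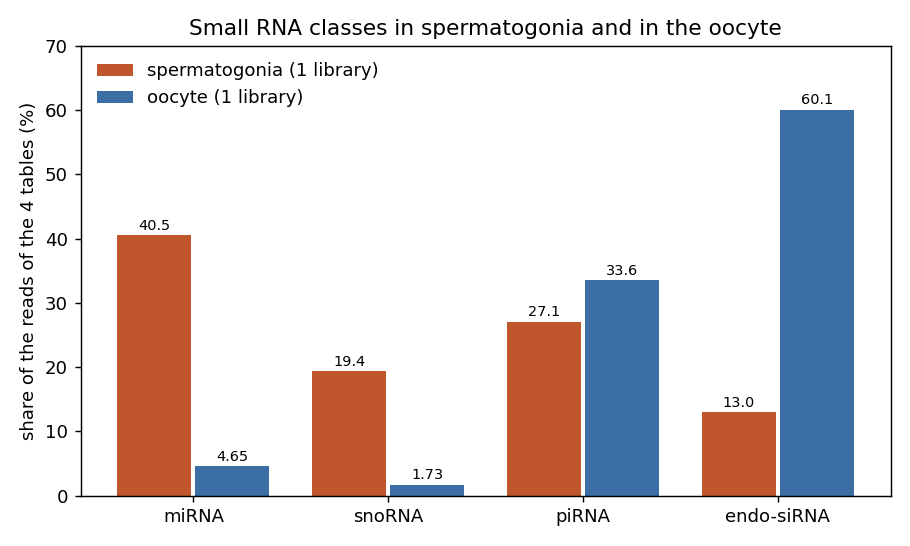
Share of the reads of the 4 tables (%, vertical axis) in each class, for spermatogonia (left bars) and the oocyte (right bars), 1 library each. The miRNA bar stands at 40.5% in spermatogonia against 4.65% in the oocyte, and the endo-siRNA bar at 13% against 60.1%.

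Ratios were taken where the pair of libraries held at least 100 reads on an entry, as log2 of spermatogonia over oocyte with 0.5 reads added to each side, and a difference of at least 4-fold was counted. Among the miRNAs, 153 (32.5%) exceeded that difference with the higher level in spermatogonia, 54 (11.5%) with the lower level there and 264 differed by less. The median log2 ratio over these was 0.96. The minimum leans towards spermatogonia, whose miRNA table is deeper: 445 of them had 100 reads there and 241 in the oocyte. With 1 minimum of 49.7 RPM in either library, the level that 100 reads make in the oocyte, 100 of 315 (31.7%) were higher and 48 (15.2%) lower, with a median of 0.68. The split depended on the scaling: on the scale of all 4 classes it was 392 higher and 10 lower, with the authors' normalised column 315 and 19, and with DESeq2 size factors 114 and 66. Most miRNAs of the oocyte were seen in both: of 469 with at least 10 reads in the oocyte, 93.6% also had 10 in spermatogonia, and of 737 in spermatogonia 59.6% also had 10 in the oocyte.

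**Figure D2:**
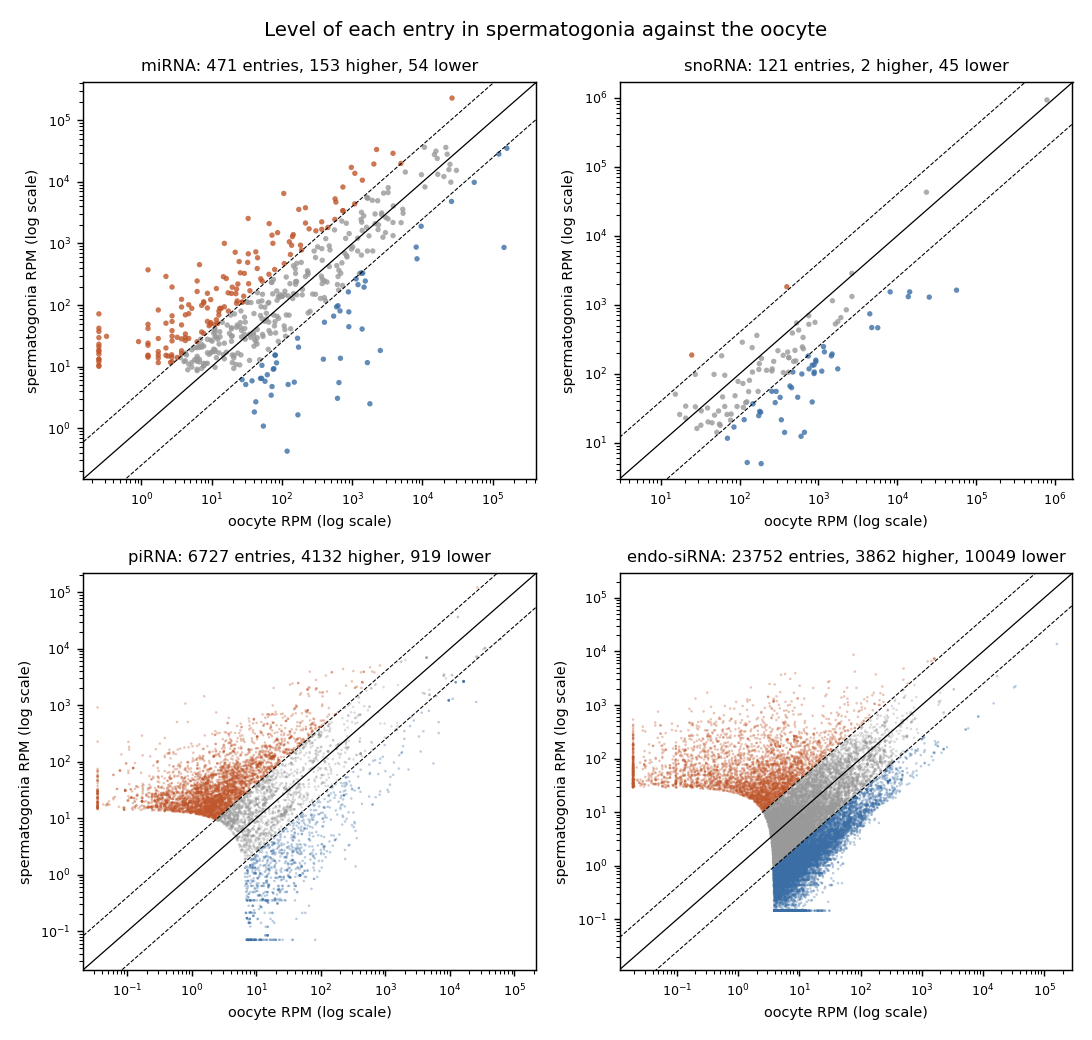
Level of each entry that reached 100 reads in the pair, spermatogonia (vertical axis) against oocyte (horizontal axis), in RPM of the class with 0.5 reads added, on log axes, 1 library each. The solid line marks equal levels and the dashed lines 4-fold differences. Orange points are at least 4-fold higher in spermatogonia (153 miRNAs, 2 snoRNAs, 4132 piRNAs, 3862 endo-siRNAs) and blue points at least 4-fold lower (54, 45, 919 and 10049). The curved lower edge of the clouds is the minimum of 100 reads.

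The oocyte was led by fewer miRNAs than spermatogonia. In spermatogonia 10 miRNAs held 50% of the miRNA reads, and in the oocyte 5 did. miR-143-3p, best known from smooth muscle, was the most abundant entry of spermatogonia at 230893 RPM, against 26338 RPM in the oocyte, 8.77-fold higher [8.69 to 8.84]. Behind it in spermatogonia stood miR-24-3p (36569 RPM against 10651 RPM in the oocyte), miR-378a-3p (36421 against 21485) and miR-182-5p (35220 against 158891). The oocyte was led by miR-182-5p, made from the miR-183/miR-96/miR-182 cluster that is known from sensory and germ cells. It was 4.51-fold lower in spermatogonia [4.49 to 4.53], although on the scale of all 4 classes the log2 ratio turned to 0.95. miR-3471 followed in the oocyte, with 9193 reads (862.6 RPM) in spermatogonia against 290685 reads (144586 RPM) in the oocyte. That was 168-fold lower in spermatogonia [164 to 171], and of the 17 miRNAs among the 10 most abundant of either library it had the lowest ratio. let-7f-5p had 28403 RPM in spermatogonia and 122192 RPM in the oocyte, and miR-21a-5p, known for its part in cell survival, 9852 RPM and 54509 RPM. On the scale of all 4 classes the log2 ratio of let-7f-5p was 1.02 and that of miR-21a-5p 0.65, so these were lower in spermatogonia as a share of miRNA reads and higher as a share of the whole library.

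**Figure D3:**
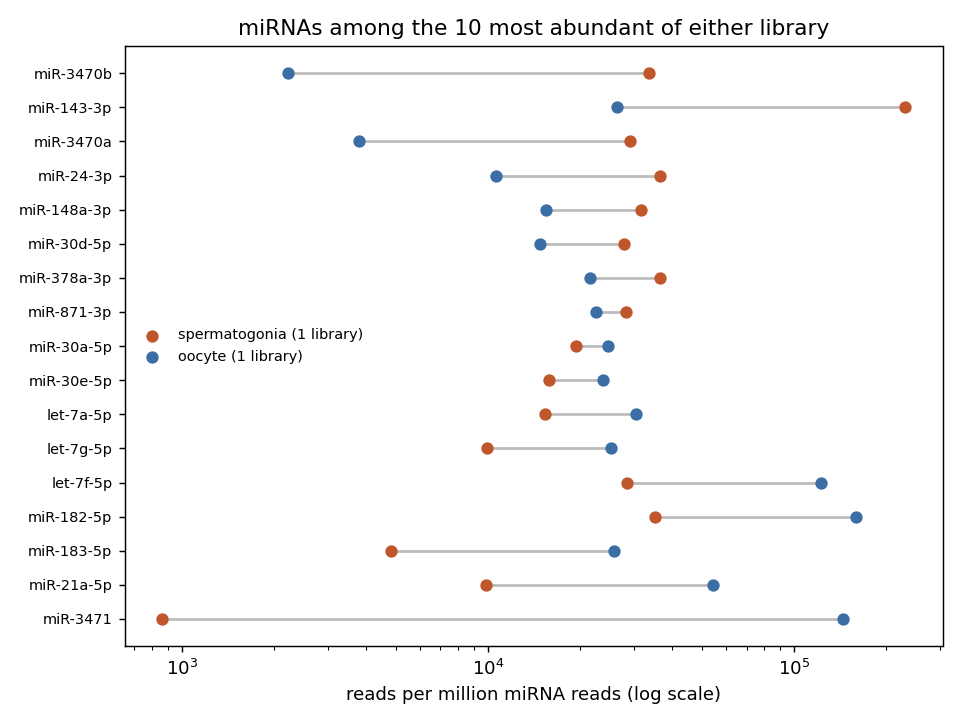
Level (RPM of miRNA reads, log axis) of the 17 miRNAs that were among the 10 most abundant of spermatogonia (orange) or of the oocyte (blue), 1 library each, ordered by their ratio. miR-143-3p stands at 230893 RPM in spermatogonia against 26338 RPM in the oocyte, and miR-3471 at 862.6 RPM against 144586 RPM.

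miR-3470a, miR-3470b and miR-3471 are annotated miRNAs whose names run on, yet their seeds differ and their ratios were opposite. miR-3470b had 33694 RPM in spermatogonia and 2222 RPM in the oocyte, 15.2-fold higher [14.7 to 15.6]. miR-3470a had 29185 RPM in spermatogonia and 3807 RPM in the oocyte, 7.67-fold higher [7.50 to 7.84]. miR-3472 went with miR-3471, at 13.14 RPM in spermatogonia and 388.5 RPM in the oocyte. Of the 10 entries from miR-3470 to miR-3473, 7 were measured, with 3 at least 4-fold higher in spermatogonia and 2 lower. Of all measured miRNAs 32.5% were higher and 11.5% lower. All 7 had 100 reads in spermatogonia and 4 in the oocyte, so the count is no support for a direction. The median log2 ratio of the 7, -0.59, turned to 2.54 on the scale of all 4 classes. It was 2.94 with a minimum of 1000 reads over the pair. In GENCODE vM21 (GRCm38, which is mm10), the precursors of miR-3470a (chromosome 6, 83090311 to 83090387), of miR-3470b (chromosome 16, 44013852 to 44013977) and both of miR-3471 (chromosome 4, 10845500 to 10845630 and 3537090 to 3537191) lay outside other annotated genes on their strand. Reads of repeat-like miRNAs may be shared with other copies in the genome, and how such reads were assigned is not given in the sources used here.

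The let-7 family, which times differentiation, made up 8.88% of miRNA reads in spermatogonia and 20.9% in the oocyte. Of its 23 arms 18 were measured, 1 at least 4-fold higher in spermatogonia and 6 lower, against 32.5% and 11.5% of all measured miRNAs. Among the 6, let-7a-1-3p and let-7c-2-3p have the same sequence and near-equal reads and are 1 measurement. The median log2 ratio of the family was -1.08, which lay 2.05 below the median of all measured miRNAs and turned to 2.04 on the scale of all 4 classes. Members with the same seed went different ways. let-7f-5p was 4.30-fold lower in spermatogonia [4.28 to 4.33] and let-7g-5p, at 9917 RPM against 25312 RPM in the oocyte, 2.55-fold lower, with log2 ratios that turned to 1.02 and 1.77 on the scale of all 4 classes. let-7c-5p was higher, at 24060 RPM in spermatogonia and 16209 RPM in the oocyte, and so was let-7e-5p, at 2130 RPM in spermatogonia and 825.8 RPM in the oocyte, 2.58-fold [2.46 to 2.71]. let-7e lies beside miR-99b, whose 5p arm also leaned to spermatogonia, on chromosome 17. let-7 members differ by few bases and 13.1% of the miRNA entries with reads in the oocyte hold fractions of reads, so values of single members are uncertain. The precursors of let-7f-5p are an exonic one in the lincRNA 6720427I07Rik on chromosome 13 (48537829 to 48537917, minus strand) and an intronic one in Huwe1 on chromosome X (151912346 to 151912428, plus strand). That of let-7g lies in an intron of Wdr82 on chromosome 9 (106178840 to 106178927, plus strand).

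The seed ACCCGUA split in the same manner. miR-99b-5p had 19550 RPM in spermatogonia and 2033 RPM in the oocyte, 9.62-fold higher [9.32 to 9.92]. miR-99a-5p had 1729 RPM in spermatogonia and 243.7 RPM in the oocyte, while miR-100-5p was 2.60-fold lower, with 755.4 RPM and 1962 RPM. Summed over the 3 sequences, the seed stood at 22035 RPM in spermatogonia and 4239 RPM in the oocyte, 5.20-fold higher [5.09 to 5.31]. With the miR-125 members, known from stem and progenitor cells and encoded in the same clusters, 6 of 9 measured arms were at least 4-fold higher in spermatogonia and none lower, with a median log2 ratio of 2.83. Of all measured miRNAs 32.5% were higher. All 9 arms had 100 reads in spermatogonia and 5 in the oocyte. The others passed the minimum through spermatogonia alone, so the count is no support for a direction. miR-125b-2-3p, the arm that is usually the less abundant, had 765 reads in spermatogonia and none in the oocyte, at least 48.1-fold higher against a floor of 3 counts (1.49 RPM). Sums by seed were close for other groups. The miR-17, miR-20 and miR-93 seed AAAGUGC summed to 11046 RPM in spermatogonia and 10933 RPM in the oocyte, a ratio of 1.01 [0.996 to 1.02]. For the miR-30 family none of 11 measured arms differed 4-fold, with a sum of 82523 RPM in spermatogonia and 90621 RPM in the oocyte. Other families also lay near the median of all measured miRNAs. Median log2 ratios were 0.88 for miR-15/16 (13 of 15 arms measured, 1 at least 4-fold higher and 2 lower), 1.16 for miR-23/27/24 (9 of 11, 3 higher), 1.03 for miR-148 and miR-152 (5 of 6, 2 higher), 0.90 for miR-29 (3 of 7) and 0.54 for miR-26 (3 of 5). miR-320 and other miRNAs made without Drosha had 4 of 7 arms measured, 2 of them higher, and a median of 1.35.

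The X-linked testis miRNAs, a rodent group in the Fmr1 to Slitrk2 interval that is known from spermatogenic cells, held 11.3% of miRNA reads in spermatogonia and 5.38% in the oocyte. Of 37 arms 31 were measured, 11 at least 4-fold higher in spermatogonia and none lower (median log2 ratio 1.55). The share of higher arms was close to the 32.5% over all measured miRNAs. All 31 had 100 reads in spermatogonia and 22 in the oocyte. miR-880-3p had 13812 RPM in spermatogonia and 1090 RPM in the oocyte, 12.7-fold higher [12.2 to 13.2], and miR-743a-3p 8271 RPM and 737.1 RPM. Other members were high in both libraries. miR-871-3p, the most abundant of the group, had 28246 RPM in spermatogonia and 22477 RPM in the oocyte, and miR-741-3p 8302 RPM and 10825 RPM. Entries of miR-465 are near-identical copies. miR-465b-3p and miR-465c-3p carry the same reads in each library, 36325 in spermatogonia and 1482.8 in the oocyte. miR-465a-3p has the same sequence as these, with 18163 reads in spermatogonia and 741.4 in the oocyte. The 3p arms of miR-465a, miR-465b and miR-465c therefore count as 1 measurement. All miRNAs with a locus on chromosome X alone summed to 12.2% of miRNA reads in spermatogonia and 6.05% in the oocyte.

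In the imprinted Dlk1-Dio3 region on chromosome 12, 48 of 92 arms were measured, 20 at least 4-fold higher in spermatogonia and 2 lower, with a median of 1.63. Of the 48, 47 had 100 reads in spermatogonia and 15 in the oocyte, so most passed the minimum through spermatogonia alone and their count is no support for a direction. Over all 92 arms the list summed to 35074 RPM in spermatogonia and 7995 RPM in the oocyte. miR-127-3p, an antisense regulator of the imprinted gene Rtl1, had 183885 reads (17254 RPM) in spermatogonia and 1955 reads (972.4 RPM) in the oocyte, 17.7-fold higher [16.97 to 18.56]. miR-379-5p differed less, with 6730 RPM in spermatogonia and 3243 RPM in the oocyte. The Sfmbt2 intron list is named after a large rodent cluster of repeated copies on chromosome 2. It was drawn by miRNA name and not by position, and its member miR-466i-3p lies on chromosome 13. The list had 74 arms, of which 30 were measured. Of these 21 were at least 4-fold higher in spermatogonia and none lower, against 32.5% and 11.5% of all measured miRNAs. Only 1 of the 30 had 100 reads in the oocyte, so the rest passed the minimum through spermatogonia and their count is no support for a direction. Over all 74 arms this list summed to 1936 RPM in spermatogonia and 270.3 RPM in the oocyte. miR-467a-5p had 3485 reads in spermatogonia and 58.18 in the oocyte, 11.3-fold higher [8.75 to 15.0].

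The 9 miR-181 arms summed to 7985 RPM in spermatogonia and 497.9 RPM in the oocyte. The 6 measured were at least 4-fold higher in spermatogonia, against 32.5% of all measured miRNAs, but 3 of them had 100 reads in spermatogonia only, so the count is no support for a direction. miR-181a-5p, known from lymphoid cells and vascular tissue, was 17.6-fold higher [16.04 to 19.43] and miR-181d-5p 32.1-fold [27.03 to 38.36]. miR-10b-5p, encoded in a Hox cluster, had 10678 RPM in spermatogonia and 1394 RPM in the oocyte, whereas miR-10a-5p of another Hox cluster had 2099 RPM and 2116 RPM, a ratio of 0.992 [0.960 to 1.02]. In the miR-17/92 family and its paralogs, known for driving proliferation, 6 of 19 measured arms were at least 4-fold higher, a share close to the 32.5% over all measured miRNAs, and the median of 0.82 lay below the 0.96 of all. miR-25-3p was 9.32-fold higher [8.79 to 9.89], while miR-92a-3p had 3605 RPM in spermatogonia and 5241 RPM in the oocyte. Among miRNAs described in spermatogonial stem and progenitor cells, miR-146b-5p had 5029 RPM in spermatogonia and 1933 RPM in the oocyte. miR-221-3p had 35.19 RPM and 81.08 RPM, and miR-222-3p 38.28 RPM and 65.16 RPM. In this list of 10 arms, with 7 measured, none was at least 4-fold higher and 1, miR-21a-5p, at least 4-fold lower.

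Groups that lay lower in spermatogonia within the miRNAs were the miR-290 cluster, miR-34/miR-449 and miR-183/miR-96/miR-182. The miR-290 cluster, known from embryonic stem cells, had 12 of 14 arms measured, none at least 4-fold higher in spermatogonia and 6 lower, with a median log2 ratio of -2.48 that turned to 0.64 on the scale of all 4 classes. Of all measured miRNAs 11.5% were at least 4-fold lower. Of the 12 arms, 9 had 100 reads in spermatogonia, 11 in the oocyte and 8 in both. Some thus passed the minimum through the oocyte alone, so the count is no support for a direction. The miR-290 cluster summed to 1692 RPM in spermatogonia and 5701 RPM in the oocyte. miR-294-3p was 8.36-fold lower in spermatogonia [7.67 to 9.12], and miR-291a-3p, the most abundant member, 2.18-fold lower [2.10 to 2.27]. In the miR-34/miR-449 family, whose members rise at later steps of sperm formation, 5 of 10 arms were measured. Of these 3 were at least 4-fold lower in spermatogonia, against 11.5% of all measured miRNAs. Only 2 of the 5 had 100 reads in both libraries, so the count is no support for a direction. The median of -2.68 turned to 0.44 on the scale of all 4 classes. miR-34c-5p had 9317 reads (874.2 RPM) in spermatogonia and 16373 reads (8144 RPM) in the oocyte, 9.32-fold lower [9.08 to 9.56]. miR-449a-5p of the same family had 35.47 RPM in spermatogonia and 39.29 RPM in the oocyte. In the miR-183/miR-96/miR-182 cluster, miR-183-5p was 5.37-fold lower in spermatogonia [5.30 to 5.43], with a log2 ratio that turned to 0.70 on the scale of all 4 classes, and miR-96-5p had 1263 RPM in spermatogonia and 2737 RPM in the oocyte.

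**Figure D4:**
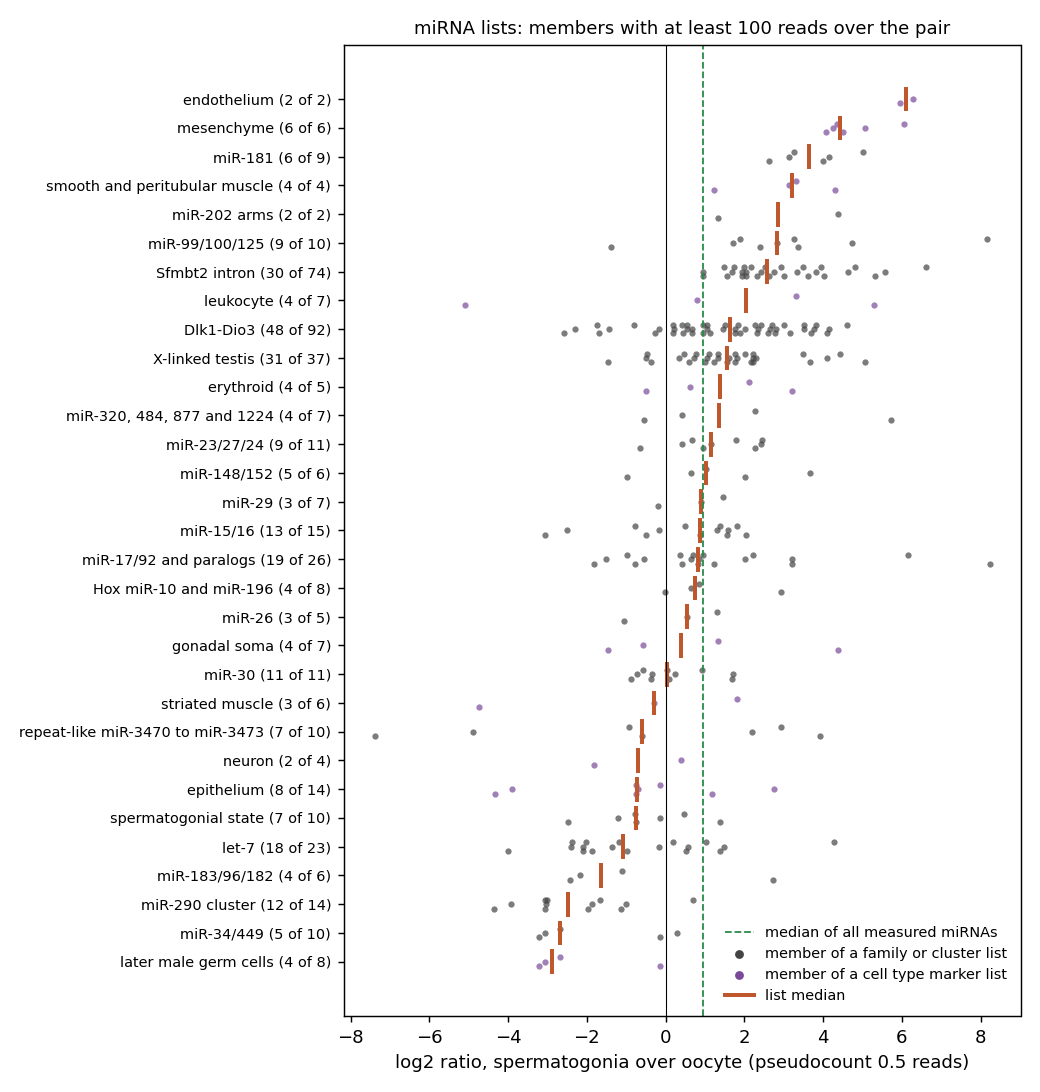
Log2 ratio of spermatogonia over oocyte (horizontal axis) for the measured members of each miRNA list, with measured of all arms in brackets, 1 library a side. Each point is 1 arm, grey for families and clusters and purple for markers of cell types, with the list median as an orange bar. The dashed line is the median of all measured miRNAs, 0.96. The miR-290 and miR-34/miR-449 medians stand at -2.48 and -2.68, and those of endothelium and mesenchyme at 6.10 and 4.43.

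Markers of cells other than germ cells moved with the comparison. In spermatogonia the smooth and peritubular muscle list summed to 23.3% of miRNA reads, against 2.66% in the oocyte. Of its 4 measured arms 3 were at least 4-fold higher, against 32.5% of all measured miRNAs. All 4 had 100 reads in spermatogonia but only 2 in the oocyte, so the count is no support for a direction. Both endothelial arms were higher: miR-126a-3p had 6501 RPM in spermatogonia and 105.9 RPM in the oocyte, 61.4-fold [53.6 to 70.5]. The 6 mesenchymal arms of miR-199a, miR-199b and miR-214 summed to 3908 RPM in spermatogonia and 148.2 RPM in the oocyte. Each was at least 4-fold higher, against 32.5% of all measured miRNAs, but only 1 had 100 reads in the oocyte, and miR-199a-3p and miR-199b-3p have the same sequence, so the count is no support for a direction. The erythroid list summed to 2031 RPM in spermatogonia and 428.3 RPM in the oocyte, with miR-451a at 1294 RPM and 140.8 RPM. None of the arms of these 4 lists but 1 erythroid arm was at 0 reads in the oocyte. In the leukocyte list miR-142-3p, the defining marker, had 2078 reads in spermatogonia and 39 in the oocyte, while miR-155-5p had 40.72 RPM and 1384 RPM, so the sum was lower in spermatogonia, at 304.2 RPM against 1414 RPM in the oocyte, and higher on the scale of all 4 classes. The median of its 4 measured arms was 2.05, of the opposite sign to the sum, and -0.89 with a minimum of 1000 reads over the pair. The epithelial list summed to 2051 RPM in spermatogonia and 10119 RPM in the oocyte, mostly miR-200c-3p, which had 563.9 RPM and 8355 RPM. The gonadal soma list, led by miR-202-5p, which is known from Sertoli and granulosa cells, summed to 15126 RPM in spermatogonia and 6108 RPM in the oocyte, with 1 of 4 measured arms at least 4-fold higher. miR-202-5p itself was 2.54-fold higher [2.49 to 2.59] and the 3p arm of the same precursor 20.9-fold [15.8 to 28.2], at 508.3 RPM in spermatogonia and 24.37 RPM in the oocyte. The list of later male germ cells, mostly miR-34/miR-449 members, summed to 931.6 RPM in spermatogonia and 8295 RPM in the oocyte. Of its 4 measured arms 3 were at least 4-fold lower, against 11.5% of all measured miRNAs. Of these 4 arms, 2 had 100 reads in spermatogonia, 2 in the oocyte and 1 in both, so the count is no support for a direction. The median of this list, -2.88, turned to 0.25 on the scale of all 4 classes. The neuron list summed to 137.2 RPM in spermatogonia and 441.7 RPM in the oocyte, the striated muscle list to 324.7 RPM and 520.3 RPM, and miR-122 of liver was at 0 reads in spermatogonia. The medians of the epithelial, neuron and striated muscle lists, -0.73, -0.71 and -0.30, turned to 2.39, 2.41 and 2.82 on the scale of all 4 classes. Without the marker miRNAs of cells outside the germ line, 164 miRNAs were at least 4-fold higher in spermatogonia and 41 lower. Leaving these markers out also changed the totals, which raised every remaining log2 ratio by 0.38, and fewer miRNAs were measured. These counts therefore mix the removal with the new scaling and do not measure the part of other cells. The part of other cells in single miRNA ratios was not tested.

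Among the 12 highest ratios were arms with few or no oocyte reads. miR-92a-1-5p had 3972 reads in spermatogonia and 2 in the oocyte, 375-fold higher [104 to 3095], and miR-126a-5p 27195 reads and 66. miR-574-5p had 447 reads in spermatogonia and none in the oocyte, at least 28.1-fold higher, and 15 of the 153 higher miRNAs had no oocyte reads. The 12 lowest included miR-147-5p, with 26 reads in spermatogonia and 3587 in the oocyte, 731-fold lower [498 to 1121]. Its precursor lies in an exon of AA467197 on chromosome 2 (122640803 to 122640881, plus strand). Both arms of miR-664, from an intron of Rab3gap2 on chromosome 1 (185242975 to 185243043, plus strand), were low in spermatogonia, the 5p arm at 18.20 RPM against 2510 RPM in the oocyte and the 3p arm at 13.61 RPM against 679.9 RPM in the oocyte. miR-155-5p, from an exon of Mir155hg on chromosome 16 (84714140 to 84714204, plus strand), was 33.99-fold lower [30.71 to 37.70]. miR-1940 had 123 reads in spermatogonia and 3305 in the oocyte, miR-3547-3p 32 and 1241, and miR-5101 58 and 1301. All of the lower miRNAs named in these sentences kept a negative log2 ratio on the scale of all 4 classes.

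The arms of a precursor give a measure that no scaling moves. Both arms could be compared in 88 precursors, and in 65 the 3p to 5p ratio differed by less than 4-fold. In 12 the ratio was at least 4-fold higher in spermatogonia and in 11 at least 4-fold lower. The main arm switched in 6 of the 88. The 3p arm of miR-291b held 13.1% of its reads in spermatogonia [9.90 to 16.9] and 79.2% in the oocyte [72.6 to 84.9]. For miR-376c it held 44% in spermatogonia and 83.4% in the oocyte, and for miR-376b 17.2% and 52.8%. miR-369 had the 3p arm as the main one in both libraries, with 56.9% of its reads there in spermatogonia [53.4 to 60.5] and 98.2% in the oocyte [95.8 to 99.4]. For miR-296 the 3p arm held 45.8% in spermatogonia and 7.46% in the oocyte. The share of the less used arm had a median of 8.73% in spermatogonia and 6.48% in the oocyte, and it was higher in spermatogonia in 58 of 88 precursors. The miRNA table of spermatogonia is deeper, so a less used arm could pass the minimum through spermatogonia alone. These medians and this count are therefore no support for a direction.

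**Figure D5:**
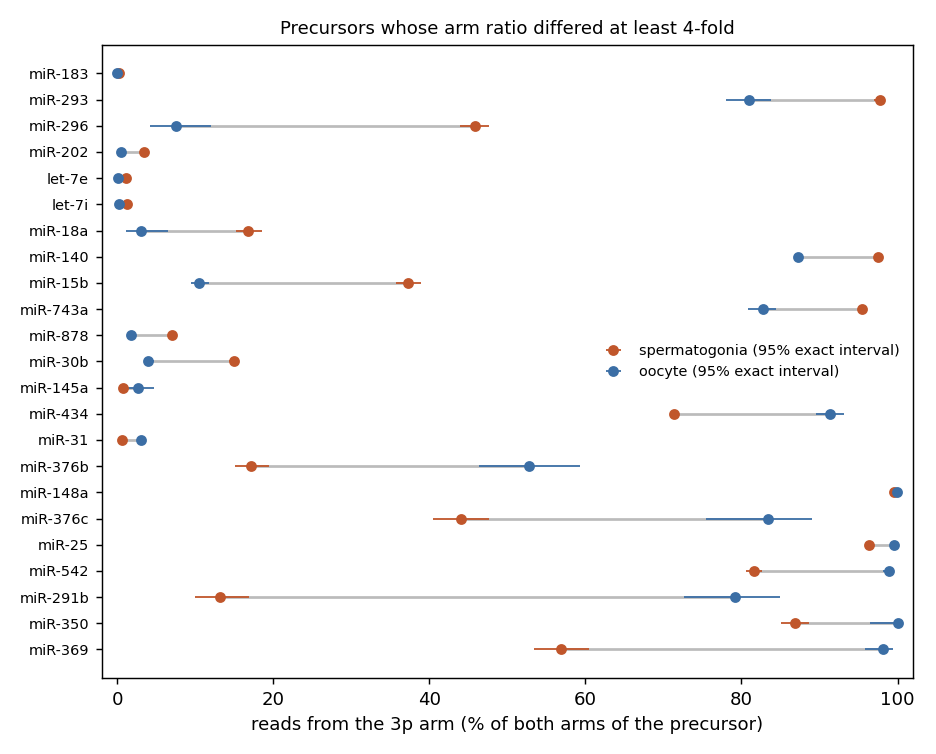
Share of reads on the 3p arm (% of both arms, horizontal axis) for the 23 precursors whose 3p to 5p ratio differed at least 4-fold, in spermatogonia (orange) and the oocyte (blue), 1 library each, with exact 95% intervals. miR-291b stands at 13.1% in spermatogonia against 79.2% in the oocyte, and miR-296 at 45.8% against 7.46%.

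A single entry filled the snoRNA tables. Snord60, a C/D box snoRNA, held 4730873 reads in spermatogonia, 92.6% of the class [92.58 to 92.62], and 593028 reads in the oocyte, 79.1%. Its transcript in GENCODE vM21 is shown with the first TGATGA (C box) and the last CTGA (D box), searched on the given strand, in capitals. Of 1507 annotated snoRNA transcripts, 26.1% hold TGATGA and 79.5% hold CTGA. It lies at chr17:24528476-24528553 on the plus strand of GRCm38, in an exon of the antisense RNA Rab26os.
Snord60: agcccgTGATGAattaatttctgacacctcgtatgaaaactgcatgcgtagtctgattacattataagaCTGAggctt

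Most other snoRNAs were lower in spermatogonia on class totals that include Snord60. Of 121 measured snoRNAs, 2 (1.65%) were at least 4-fold higher in spermatogonia and 45 (37.2%) lower, with a median log2 ratio of -1.56. On totals without Snord60 the same measure gave 13 higher and 12 lower of 120, with a median of -0.06. edgeR's TMM and DESeq2's size factors also gave 13 and 12, and the authors' normalised column 22 and 8. Totals without the 5 most abundant entries gave 14 and 7, and the scale of all 4 classes 60 higher and 2 lower. Some entries repeat others: SNORD39 and U39 hold the same 875 reads in spermatogonia and 314.5 in the oocyte. The names SNORD82 / U82 / Z25, SNORD82 / U82 and Z25 overlap, with log2 ratios of -2.86, -2.82 and -2.89 on the full totals. The snoRNA counts may therefore hold the same reads more than once. On totals without Snord60, Snord35, from an intron of the ribosomal protein gene Rpl13a, had 576785 RPM in spermatogonia and 111818 RPM in the oocyte, 5.16-fold higher [5.08 to 5.24]. On the same totals without Snord60, Snord15, known to lie in introns of Rps3, was 13.01-fold higher [11.59 to 14.65]. On those totals too, Snord63 had 21997 RPM in spermatogonia and 269616 RPM in the oocyte, 12.3-fold lower [11.97 to 12.55], and scaRNA6, which guides the modification of spliceosomal RNA, 17425 RPM and 121510 RPM. With the full totals, the medians were -1.42 for 84 measured C/D box entries, -1.85 for 24 H/ACA box entries and -2.86 for 4 small Cajal body RNAs. By host gene, medians were -1.22 for 5 snoRNAs of Gas5, 0.07 for 4 of Rpl13a and -2.22 for 7 of Snhg1, and they were -2.51 for 2 imprinted snoRNAs and 0.73 for 4 entries of U3 and U8. The box class medians were within 1.30 of the class median, and each turns above 0 on the scale of all 4 classes. The 3 lowest ratios were those of MBI-87, SNORA70 and SNORA54, with 12.33, 14.09 and 4.893 RPM in spermatogonia and 600.2, 662.9 and 186.7 RPM in the oocyte.

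Among measured piRNA entries, more were at least 4-fold higher than lower in spermatogonia within their class. Of 6727 measured entries 4132 (61.4%) were at least 4-fold higher and 919 (13.7%) lower, with a median log2 ratio of 2.70. With 1 minimum of 14.0 RPM in either library, 68.6% of 5322 entries were higher and 11.9% lower. In spermatogonia 81 entries held 50% of piRNA reads, against 21 in the oocyte, and 4261 held 90%, against 344. The most abundant entry alone held more in spermatogonia, 12.1% against 6.18% in the oocyte, and the first 5 held 21.9% against 19.9%. The entries fell into name types that differed. Of 4417 measured entries named mmur with a number, 3360 were at least 4-fold higher in spermatogonia and 87 lower (median 3.07). Of 2255 named PIR, 752 were higher and 832 lower (median -0.35), which turned to 710 higher and 567 lower of 1704 (median 0.89) with the same level minimum in both libraries. The name types nevertheless held about equal shares of piRNA reads, with 51.9% on PIR entries in spermatogonia and 53.4% in the oocyte. Entries with chrM in their name, the mitochondrial chromosome, held 0.214% in spermatogonia and 0.0879% in the oocyte.

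The most abundant piRNA entries were shared by the libraries. PIR64428 had 864458.63 reads in spermatogonia, 12.1% of the class, and 386679.28 in the oocyte, 4.54-fold higher [4.52 to 4.55]. PIR75142 led the oocyte, with 14644 RPM in spermatogonia and 61758 RPM in the oocyte. The neighbours mmur001134775 to mmur001134778 had 9772 to 10228 RPM in spermatogonia and 32842 to 34978 RPM in the oocyte. Such runs of neighbours with near-equal reads held 28.2% of measured piRNA entries and may count the same reads more than once as features. Counted once, 3117 of 5588 were higher in spermatogonia and 933 lower. At the ends, mmur001229210 had 6503.71 reads in spermatogonia and none in the oocyte, at least 4400-fold higher, and PIR32611 none in spermatogonia and 1180.92 in the oocyte, at least 194-fold lower. The balance rests on the scaling: edgeR's TMM factors, which lower every piRNA log2 ratio by 2.13, gave 1624 higher and 1589 lower, a share of higher calls of 50.5%. DESeq2's size factors gave 1713 and 1545 and the authors' normalised column 2222 and 1396.

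Endo-siRNA entries differed in both directions, and which direction prevailed turned with the minimum. Of 23752 measured entries, 3862 (16.3%) were at least 4-fold higher in spermatogonia and 10049 (42.3%) lower, with a median log2 ratio of -1.43. The oocyte table was the deeper one: 20250 of these entries had 100 reads there and 5034 in spermatogonia. With 1 minimum of 29.2 RPM in either library, 39.5% of 7483 entries were higher in spermatogonia and 27.2% lower, with a median of 0.74. With a minimum of 1 read it was 36719 higher and 26743 lower of 142207. At that minimum 1 spermatogonia read against none was called higher, while 1 oocyte read against none was not called lower. Depth and the reads added to each side set such calls, so this split is no support for a direction. Over the 100-read minimum the split was 2110 higher and 16684 lower on the scale of all 4 classes, and 1588 and 19047 with the authors' normalised column. No direction for the class as a whole can therefore be read from the counts. The most abundant entry of the oocyte, mmur001272954, had 47079.67 reads (13736 RPM) in spermatogonia and 4180754.44 reads (160993 RPM) in the oocyte, 11.7-fold lower [11.6 to 11.8]. It alone made up 16.1% of oocyte endo-siRNA reads. mmur001273859 had 2244 RPM in spermatogonia and 33916 RPM in the oocyte, and its neighbour mmur001273858 2136 RPM and 32233 RPM. In the other direction mmur001009920 had 8686 RPM in spermatogonia and 76.72 RPM in the oocyte, 113.2-fold higher [108.2 to 118.5]. mmur001468032 had 1836 reads in spermatogonia and none in the oocyte, at least 4637-fold higher. In spermatogonia 949 entries held 50% of the reads, against 403 in the oocyte. Of 26017 entries with at least 10 reads in spermatogonia 69.9% had 10 in the oocyte as well, and of 66778 in the oocyte 27.2% had 10 in spermatogonia. The names give no source gene or repeat.

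The same entries were looked up in 2 libraries that the comparison did not use, primordial germ cells of male gonads at 13.5 dpc and zygotes, which are a younger male germ cell and a later egg stage and no replicates. Of the miRNAs higher in spermatogonia that were also measured there, 58 (46.4%) were at least 4-fold higher in primordial germ cells than in zygotes, against 26.2% of all miRNAs measured in that pair. Of the 54 lower miRNAs 50 were measured, and 28 (56.0%) were at least 4-fold lower, against 17.1% of all. miR-3471 had 98.30 RPM in primordial germ cells and 143649 RPM in zygotes, but miR-182-5p was higher in primordial germ cells, with 279837 RPM against 103381 RPM in zygotes. miR-3470b, high in spermatogonia, had 292.6 RPM in primordial germ cells and 2756 RPM in zygotes. For piRNAs 74.1% of 2059 higher and 91.3% of 816 lower entries were at least 4-fold apart the same way, against 47.1% and 29.5% of all. For endo-siRNAs these shares were 40.3% of 1881 and 88.3% of 9469, against 7.37% and 71.3%. The entries measured there were 2059 of the 4132 higher piRNAs and 1881 of the 3862 higher endo-siRNAs, so many were not assessed. At least 4-fold the opposite way were 17.1% of these higher and 0.454% of the lower endo-siRNAs, and 2.82% and 0.49% of the piRNAs. For snoRNAs none of the 2 higher entries was also higher, against 1.67% of all, and 79.5% of the 44 lower ones were also lower, against 49.2%.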

How the data were processed

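The deposited read column, made by the authors, holds an estimated count per entry, often with fractions. The other deposited column, headed TMM, is a normalised signal that the authors made, and it came to the reads multiplied by 0.672 in every spermatogonia table and by 0.937 in every oocyte table. Bowtie 0.12.7, DESeq and mm10 are named per the submitters' processing notes, without roles, and reads were 18 to 32 nt per the labels' protocols. How reads with several matches were assigned, and to which annotation, was not stated. In the miRNA table of spermatogonia the deposited reads are whole while the normalised column divided by the factor gives fractions for 13.2% of entries, so that table was rounded. Using the recovered fractions gave 154 miRNAs higher and 54 lower.

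Entries absent from a table were taken as 0. Left out were 6 snoRNA entries that name no single snoRNA. Levels (RPM) are reads per 1000000 reads of the class in the library. Log2 ratios used a pseudocount of 0.5 reads over entries whose reads in the pair summed to 100 or more, and calls were at least 4-fold. Intervals are exact 95% Clopper-Pearson, for ratios conditional on the sum of 2 Poisson counts after rounding, and a fold against 0 reads is a bound from 3 counts in that library. No test, p-value or SD is possible with 1 library a side. The 21 miRNA, 11 marker and 8 snoRNA lists, the members and the naming rule were chosen with earlier results of these data known. Named were the 12 highest and lowest miRNA ratios, the 10 most abundant miRNAs per library, 5 of each for other classes, and list members. The marker list of later male germ cells repeats members of miR-34/miR-449, and the gonadal soma list holds both miR-202 arms. Python 3.11.15, pandas 2.3.3, scipy 1.17.1, edgeR 4.0.16 and DESeq2 1.42.0 (factors only, as alternatives) were used. The counting was tested on simulated data. Depth sets the floor: 3 counts are 0.281 RPM for miRNAs in spermatogonia and 1.49 RPM in the oocyte.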

Additional observations from a re-analysis of the deposited data

Results flagged for a closer look

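In the snoRNA tables, 6 entries name no single snoRNA and entered no comparison. They held 0.824% of the reads of that table in spermatogonia (42441 reads) and 3.21% in the oocyte (24861 reads), above what 3 counts would give in either library.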

How the results depend on the processing

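No paired analysis was possible because each cell type has 1 library, and for the same reason leaving out a replicate was not possible. Counts below are entries at least 4-fold higher, then at least 4-fold lower, in spermatogonia. Where a value moved, the cause was not tested beyond what the alternative itself changes.

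On the scale of all 4 classes, the counts were 392 and 10 for miRNAs, 60 and 2 for snoRNAs, and 2110 and 16684 for endo-siRNAs. With the authors' normalised column they were 315 and 19 for miRNAs, 22 and 8 for snoRNAs, 2222 and 1396 for piRNAs and, for endo-siRNAs, 1588 and 19047. edgeR's TMM factors gave 13 and 12 for snoRNAs and 1624 and 1589 for piRNAs, and DESeq2's size factors 13 and 12 and 1713 and 1545. Totals without the 5 most abundant entries gave 14 and 7 for snoRNAs.

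With a minimum of 20 reads the counts were 238 and 92 for miRNAs, 11474 and 2391 for piRNAs, 10957 and 23695 for endo-siRNAs, and 7 higher snoRNAs. With 1 read they were 294 and 193, 47045 and 7094, 36719 and 26743, and 9 higher snoRNAs. There 1 read against none was called in the library with the lower class total and was not called in the other. Counts at 1 read are therefore no support for a direction. With 1000 reads the counts were 81 and 29 for miRNAs, 1 and 22 for snoRNAs, 590 and 240 for piRNAs and, for endo-siRNAs, 462 and 1593. A pseudocount of 5 reads left 5316 lower endo-siRNAs. The same level minimum in both libraries, chosen after seeing the data, gave 100 higher miRNAs and 2039 lower endo-siRNAs.

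On the scale of all 4 classes the log2 ratio changed sign for these named entries that had been at least 4-fold lower: let-7f-5p (1.02), miR-182-5p (0.95), miR-183-5p (0.70), miR-21a-5p (0.65) and SNORD21 (0.26). It also changed sign for let-7g-5p (1.77), let-7a-5p (2.14), miR-30e-5p (2.54) and miR-30a-5p (2.77). Every negative miRNA list median changed sign there too: the miR-290 cluster (0.64), miR-34/miR-449 (0.44), later male germ cells (0.25), let-7 (2.04), miR-183/miR-96/miR-182 (1.48), spermatogonial state (2.38), miR-3470 to miR-3473 (2.54), epithelium (2.39), neuron (2.41) and striated muscle (2.82). The endo-siRNA entries mmur000681034, mmur000681035 and mmur000681036 came to -0.00, -0.01 and -0.01 on that scale and to -1.19, -1.20 and -1.21 with the authors' normalised column. The leukocyte median was -0.89 with a minimum of 1000 reads and with the same level minimum. Counted per list and alternative, 181 medians stayed within the list's quartiles, 83 moved outside them and 5 that had been at least 4-fold apart changed sign. For named entries, 230 ratios stayed within their counting interval, 278 moved outside it and 11 that had been at least 4-fold apart changed sign.

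Without the 5 most abundant entries of each class, the shares of miRNAs, snoRNAs, piRNAs and endo-siRNAs were 41.1%, 0.764%, 36.2% and 21.9% in spermatogonia and 2.79%, 0.210%, 35.1% and 61.9% in the oocyte. With runs of near-equal entries counted once they were 44.1%, 21.1%, 22.3% and 12.5% in spermatogonia and 5.98%, 2.23%, 26.6% and 65.2% in the oocyte. Depth limits low entries: 3 counts are 4.00 RPM for oocyte snoRNAs and 0.875 RPM for endo-siRNAs in spermatogonia.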
